A study of Mus musculus with 2 samples.

Results

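The 10 genes described here are Gfap, Vim, Cd44, Serpina3n, Lcn2, Osmr, S100a6, S100a10, Timp1 and Steap4, a list used to mark reactive astrocytes. They were taken by gene symbol from the feature tables, which hold 31053 genes, and all 10 were found. The genes were measured in 2 droplet single-cell RNA libraries made from the mouse hippocampus. The genotypes were Mr1+/+ and Mr1-/-, with 1 library each, and the Mr1-/- animals lack the antigen-presenting molecule MR1. All mice were 7 months old and untreated, and the design asks how expression differs between genotypes in each cell type. Tissue was dissociated with the Pierce Primary Neuron Isolation Kit. Live nucleated cells (DAPI-, Draq5+) were sorted, and a 10x Genomics 5' kit gave each captured RNA molecule its own barcode, a unique molecular identifier (UMI). The labels state no number of mice behind a library. Genotype and library cannot be told apart, because neither genotype has a replicate. No test was therefore possible, and every interval below covers counting error only.

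Astrocytes answer injury, infection and protein deposits with a programme called reactivity. GFAP and vimentin, the intermediate filament proteins of the astrocyte skeleton, are its classical markers. The oncostatin M receptor OSMR belongs to the interleukin-6 receptor family and signals through JAK kinases and STAT3, and the secreted lipocalin LCN2, the serpin SERPINA3N, the metalloproteinase inhibitor TIMP1 and the metalloreductase STEAP4 are induced in reactive astrocytes after systemic inflammation or ischaemia. CD44 is the hyaluronan receptor, S100A6 a small calcium-binding protein, and S100A10 the partner of annexin A2 at the plasma membrane. Several of these genes are also known from blood vessels and epithelia.

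The libraries held 6410 (Mr1+/+) and 5347 (Mr1-/-) cell barcodes, with 23244575 and 18349132 UMIs in total and medians of 3160 and 2935 UMIs per barcode, and 44 barcode sequences occurred in both. After filtering, 5992 and 5107 cells were grouped into 25 clusters without using the 10 genes, and 39 barcode sequences still occurred in both libraries. Of the clusters, 21 received the name of 1 of 10 cell classes from marker genes and 4 stayed unnamed. The targeted gene Mr1 had 130 UMIs in the kept cells of the Mr1+/+ library and 2 in those of the Mr1-/- library. The astrocyte-like class held 956 cells (15.95% of the Mr1+/+ cells) and 477 cells (9.34% of the Mr1-/- cells), with medians of 3120.5 and 2994 UMIs. All 11 astrocyte markers were detected in it in both libraries. The series title speaks of non-neuronal cells, and neuron-like cells numbered 275 and 167.

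Because OSMR signals through STAT3, the promoters were searched for the letters TTCNNNGAA, a STAT-type motif that reads the same on both strands in its fixed letters. RefSeq (build GRCm38.p6) lists a promoter, from 250 bases before to 50 after the start, for 9 of the 10 genes. The motif is in 2 of these 9, those of Gfap and Steap4, and in 8.30% of all 32851 listed promoters. The 3 promoters below belong to members with most of their UMIs in 1 cell class in both libraries. These are Gfap (astrocyte-like cells), Steap4 (mural-like cells) and Lcn2 (endothelial-like cells). Vim (mural-like cells) and Osmr (endothelial-like cells) also had most of theirs in 1 class, and their promoters are not printed. Capitals mark a match to the motif. A match is a description of the letters and not a shown binding site.
Gfap: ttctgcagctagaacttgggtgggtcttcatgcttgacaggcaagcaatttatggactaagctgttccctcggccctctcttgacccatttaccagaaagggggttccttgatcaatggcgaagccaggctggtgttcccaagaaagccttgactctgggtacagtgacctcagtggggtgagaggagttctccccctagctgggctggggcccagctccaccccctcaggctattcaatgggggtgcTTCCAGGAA
Steap4: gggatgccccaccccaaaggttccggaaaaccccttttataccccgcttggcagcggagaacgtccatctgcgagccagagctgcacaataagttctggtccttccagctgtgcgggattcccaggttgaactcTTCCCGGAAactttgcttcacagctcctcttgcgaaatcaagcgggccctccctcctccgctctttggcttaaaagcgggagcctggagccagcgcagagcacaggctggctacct
Lcn2: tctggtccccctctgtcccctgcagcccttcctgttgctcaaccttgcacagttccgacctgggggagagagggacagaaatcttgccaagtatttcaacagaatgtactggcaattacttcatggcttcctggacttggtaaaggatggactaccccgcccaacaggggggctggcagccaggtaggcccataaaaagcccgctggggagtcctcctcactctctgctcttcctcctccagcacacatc
The Gfap sequence is chr11:102897194-102897450, minus strand, and its match TTCCAGGAA begins 2 bases before the transcript start and crosses it. The Steap4 sequence is chr5:7960222-7960471, plus strand, with TTCCCGGAA starting 116 bases before the transcript start. The Lcn2 sequence is chr2:32387740-32387989, minus strand, and holds no match in this window. In the GENCODE annotation on mm10 all 10 genes are protein-coding. The annotated Gfap gene (chr11:102887336-102900912) and Lcn2 gene (chr2:32384633-32388252) reach past these start sites and include the printed windows, whereas the Steap4 gene (chr5:7960457-7982213) begins near the end of its window.

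Astrocyte-like cells carried 4 of the 10 members at a measurable level, and 3 members gave no UMI there at all. A gene is called measured here where it had at least 50 UMIs in a class over both libraries. Levels are CPM, a gene's UMIs per 1000000 UMIs summed over a class. Gfap stood at 200 CPM (609 UMIs, 95% Poisson interval 185 to 217) in the Mr1+/+ library and at 143 CPM (210 UMIs, 125 to 164) in the Mr1-/- library. Vim stood at 94.0 CPM (286 UMIs, 83.5 to 106) and 71.7 CPM (105 UMIs, 58.6 to 86.8). For these 2 filament genes the Mr1-/- library was the lower one, and the Gfap intervals did not overlap while the Vim intervals did. S100a6 stood at 137 CPM (417 UMIs) and 128 CPM (188 UMIs), and S100a10 at 80.2 CPM (244 UMIs) and 66.2 CPM (97 UMIs), with overlapping intervals for each.

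Expressed as the ratio of the Mr1-/- to the Mr1+/+ library, Gfap was 0.716 (exact 95% interval 0.609 to 0.839) and Vim 0.762 (0.604 to 0.957). S100a6 was 0.936 (0.784 to 1.11) and S100a10 0.825 (0.646 to 1.05), so that their intervals included 1. All 4 measured members were lower in the Mr1-/- library, and 0 of the 4 passed 1.5-fold after 10 CPM were added to both levels, a size that 1.05% of the 8482 genes measured in astrocyte-like cells passed (0.755% lower and 0.295% higher). Their median log2 ratio was -0.30, beside a median of -0.02 and a 10th percentile of -0.27 over all those genes. Gfap (-0.45) and Vim (-0.35) lay below that percentile. S100a10 (-0.24) and S100a6 (-0.09) lay above it. With a limit of 5% mitochondrial UMIs per cell in place of 10%, 1 member, Gfap, passed 1.5-fold in the lower direction (log2 ratio -0.66). With predicted doublets kept, the Vim difference turned to 0.23.

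The low members of the astrocyte-like cells were Osmr, Serpina3n and Cd44. Osmr had 34 UMIs (11.2 CPM) in the Mr1+/+ and 9 UMIs (6.15 CPM) in the Mr1-/- library, a ratio of 0.550 (0.232 to 1.17). Serpina3n had 17 and 12 UMIs, and Cd44 10 and 5 UMIs, too few to order the libraries. Lcn2, Timp1 and Steap4 had 0 UMIs in both libraries. A count of 0 allows up to 0.986 CPM in the Mr1+/+ and 2.05 CPM in the Mr1-/- astrocyte-like cells (3 counts), or a UMI in up to 0.314% and 0.629% of cells. That limits cells with a captured UMI at this depth and not cells that express the gene.

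**Figure D1:**
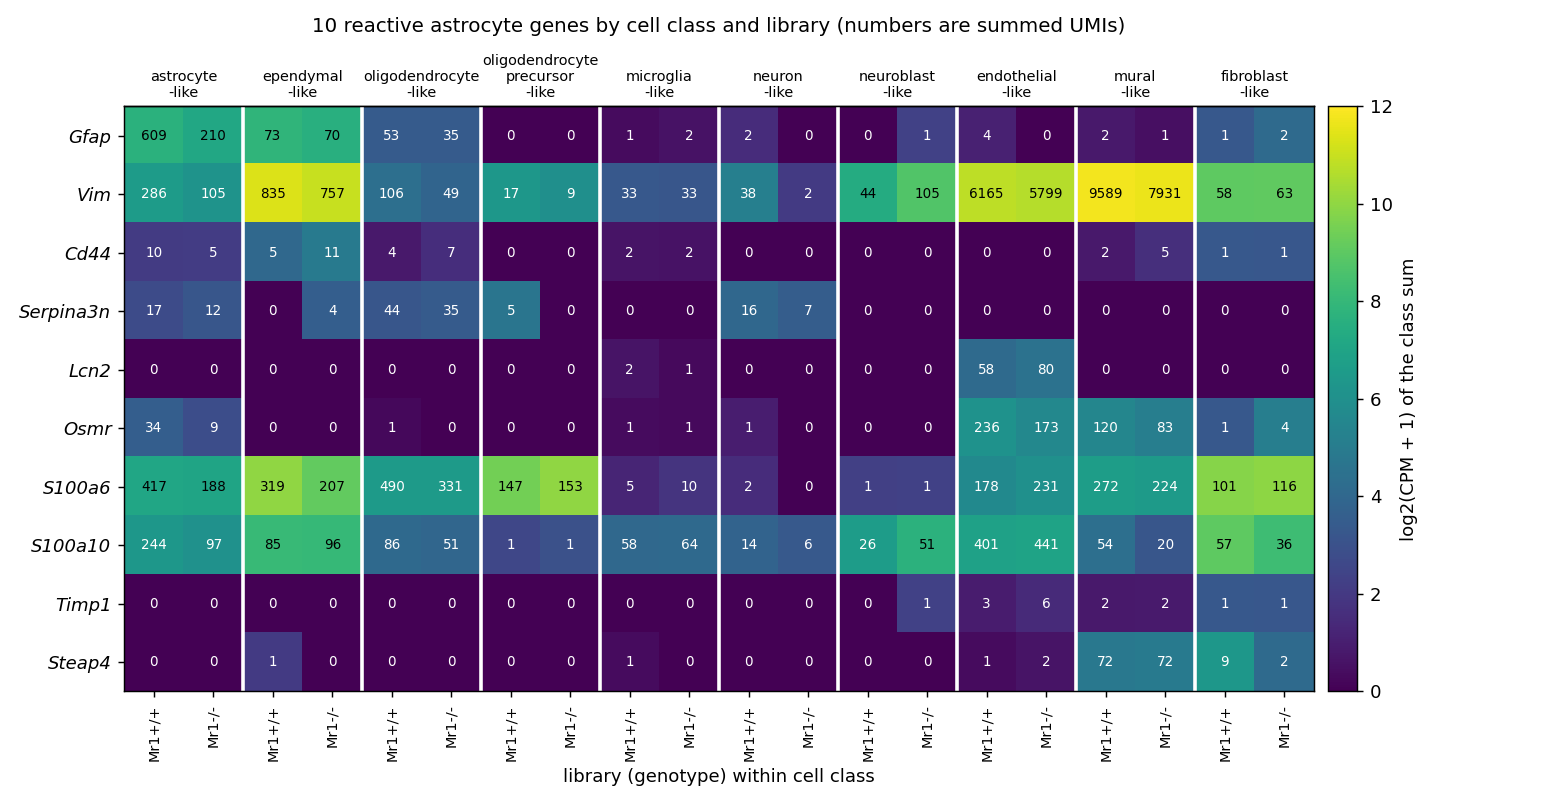
The 10 genes (rows) in 10 cell classes, with the Mr1+/+ and the Mr1-/- library side by side in columns; colour is log2(CPM + 1) of the class sum and each number is the summed UMI count. Gfap is high in astrocyte-like (609 and 210 UMIs) and ependymal-like cells (73 and 70), Vim in mural-like, endothelial-like and ependymal-like cells, and Lcn2, Timp1 and Steap4 have 0 UMIs in astrocyte-like cells of both libraries.

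The share of astrocyte-like cells with a Gfap UMI was close in the 2 libraries at equal depth. Gfap had a UMI in 29.5% of the Mr1+/+ and 26.4% of the Mr1-/- astrocyte-like cells. Once each cell was thinned to 1500 UMIs, the shares were 16.4% (139 of 850 cells, exact interval 13.9% to 19.0%) and 16.3% (74 of 453 cells, 13.1% to 20.1%). That left out 106 and 24 shallower cells, and in the thinned cells the log2 ratio of Gfap was -0.14. In microglia-like cells, which should lack Gfap, unthinned shares were 0.159% and 0.269%, at deeper medians of 4334 and 3824.5 UMIs. The highest Gfap count in a cell was 20 UMIs in the Mr1+/+ and 8 in the Mr1-/- library. Cells with 10 or more Gfap UMIs numbered 5 of 956 and 0 of 477, and those 5 cells held 68 of the 609 Mr1+/+ UMIs. Since a count of 0 allows 3 counts and the Mr1+/+ class held more cells, these shares could not be told apart. The 5 cells had between 4106 and 10052 UMIs in total, above the class median of 3120.5, and between 108 and 290 astrocyte marker UMIs each.

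Thinned shares of the other measured members were, for Vim, 11.1% (9.03% to 13.4%) in the Mr1+/+ and 7.73% (5.44% to 10.6%) in the Mr1-/- library. For S100a6 they were 15.8% and 16.3%, and for S100a10 10.8% and 8.61%. All these pairs of intervals overlapped. Unthinned shares were 19.7% and 15.5% for Vim, 30.5% and 29.6% for S100a6, and 19.4% and 16.8% for S100a10. Markers of vessel cells, in which Vim is far higher, were also seen in the astrocyte-like class. The 8 endothelial markers summed to 87.8 CPM (7 of 8 above 0) in the Mr1+/+ and 63.5 CPM (5 of 8) in the Mr1-/- library. The highest of them alone gave 54.9 and 43.7 CPM, Cldn5 had 14 and 3 UMIs, and Cdh5 was at 0 in both. The 10 mural markers summed to 97.3 CPM (9 of 10) and 93.5 CPM (7 of 10). The highest of them alone gave 54.6 and 62.8 CPM, Acta2 had 29 and 6 UMIs, and Abcc9 was at 0 in both. The part of vessel RNA in the Vim difference was not tested.

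The members did not sit evenly over the astrocyte-like cells. At a finer clustering the class fell into 3 clusters. In the cluster led by Slc1a2, Ntsr2, Cldn10 and Clu (508 and 283 cells), Gfap stood at 246 CPM in the Mr1+/+ and 152 CPM in the Mr1-/- library, a ratio of 0.619 (0.506 to 0.752). In the cluster led by Igfbp2 and F3 (349 and 174 cells) it stood at 131 and 112 CPM, a ratio of 0.853 (0.625 to 1.15). Vim was likewise higher in the first cluster, at 128 and 87.8 CPM, than in the second, at 44.1 and 30.8 CPM. The third, a shallow cluster with a median of 929 UMIs (99 and 20 cells), went the other way between libraries. It held 22 and 13 Gfap UMIs (214 and 555 CPM) and 9 and 10 Vim UMIs. In the cluster led by Slc1a2, Gfap was thus past 1.5-fold in the lower direction, with or without 10 CPM added to both levels. With the larger astrocyte-like cluster of the main clustering alone, a setting added after the data were seen, the count of members past 1.5-fold stayed at 0.

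Within the thinned astrocyte-like cells, S100a10 and Vim were seen in a larger share of the cells with a Gfap UMI than of the cells without it, in both libraries. No interval was computed for these shares. S100a10 was seen in 19.4% of the 139 Mr1+/+ cells with Gfap and in 9.14% of the cells without it, and in 13.5% and 7.65% in the Mr1-/- library. Vim was seen in 16.5% and 9.99% in the Mr1+/+ library and in 13.5% and 6.60% in the Mr1-/- library. S100a6 was seen in 17.3% and 15.5% in the Mr1+/+ library and in 13.5% and 16.9% in the Mr1-/- library, so its order differed between them. Cells with a UMI of at least 4 members numbered 4 of 850 and 2 of 453, and 57.3% and 59.2% of the cells had none. These shares describe cells of 1 library each, and cells are not replicates.

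**Figure D2:**
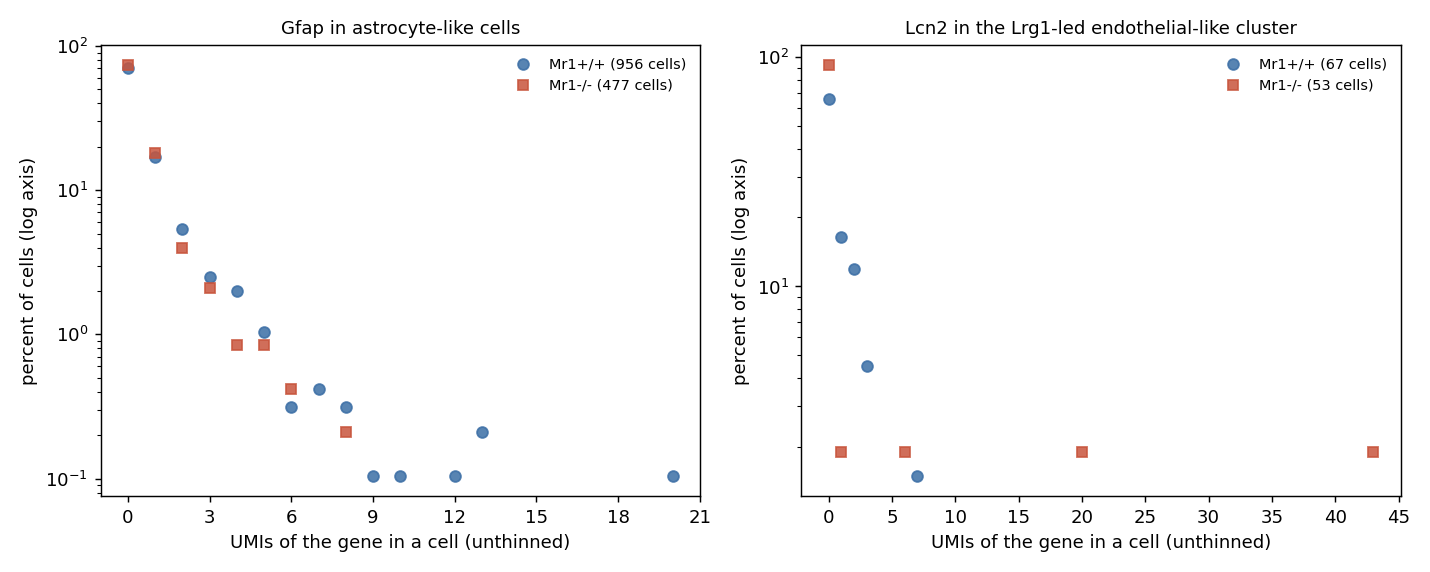
Percent of cells (log axis) against the number of UMIs of a gene in a cell, unthinned, for Gfap in astrocyte-like cells (left) and Lcn2 in the endothelial-like cluster led by Lrg1 (right), blue circles for Mr1+/+ and red squares for Mr1-/-. Gfap reaches 20 UMIs in the Mr1+/+ and 8 in the Mr1-/- library, and Lcn2 is spread over 23 Mr1+/+ cells but sits in 4 Mr1-/- cells, 1 of them with 43 UMIs.

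Gfap was the only member with most of its UMIs in astrocyte-like cells, which held 75.3% of them in the Mr1+/+ and 63.6% in the Mr1-/- library. Ependymal-like cells, the ciliated cells that line the ventricles, had levels that overlapped those of astrocyte-like cells. There Gfap stood at 232 CPM (182 to 292, 73 UMIs in 45 cells) and 190 CPM (148 to 239, 70 UMIs in 59 cells). Single ependymal-like cells held 24 of the 73 and 19 of the 70 UMIs, an unevenness that these intervals do not cover. Oligodendrocyte-like cells held 53 and 35 UMIs, 9.95 and 9.83 CPM, well below both of these classes. They could not be ordered against fibroblast-like cells with 1 and 2 UMIs. The next shares are those of oligodendrocyte-like cells. There 3.89% (50 of 1285, interval 2.90% to 5.098%) and 3.76% (32 of 850, 2.59% to 5.27%) of cells had a Gfap UMI, above the microglia-like shares of 0.159% and 0.269% at similar median depths of 4218 and 4060 UMIs. The astrocyte transporter gene Slc1a2 had a UMI in 10 of those 50 cells and in 7 of those 32. Per 100 Slc1a2 UMIs, oligodendrocyte-like cells held 25.2 and 43.8 Gfap UMIs and astrocyte-like cells 3.28 and 2.32. Over all kept cells, Gfap went from 37.7 CPM in the Mr1+/+ to 19.0 CPM in the Mr1-/- library, a ratio of 0.505 (0.443 to 0.575). After 10 CPM were added, 1 of 9 measured members, Gfap, was past 1.5-fold over all cells, where 0.798% of 14028 genes were. Without that addition Lcn2, at 2.80 CPM (60 UMIs) and 6.23 CPM (108 UMIs), also was, with a ratio of 2.23 (1.61 to 3.11). Single Mr1-/- cells held 43, 27 and 20 of those 108 UMIs, and the cell with 27 had 537 neutrophil marker UMIs. The interval does not cover such unevenness between cells. For Gfap, the smaller share of astrocyte-like cells in the Mr1-/- library (9.34% against 15.95%) moved with the difference, and its part was not tested.

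Vim was foremost a vessel gene in these libraries. Mural-like cells, which cover the pericytes and smooth muscle cells around vessels, accounted for 55.1% (Mr1+/+) and 53.0% (Mr1-/-) of the Vim UMIs, and astrocyte-like cells 1.64% and 0.702%. The level was 3544 CPM in the Mr1+/+ and 3252 CPM in the Mr1-/- mural-like cells. Ependymal-like cells followed with 2652 and 2050 CPM, and endothelial-like cells with 1777 and 1602 CPM, each step beyond the counting intervals in both libraries. Fibroblast-like cells (524 and 533 CPM) and neuroblast-like cells (167 and 423 CPM) were lower, and the intervals of these 2 classes overlapped in the Mr1-/- library only. Astrocyte-like and oligodendrocyte precursor-like cells (81.8 and 61.2 CPM) could not be ordered. Oligodendrocyte-like (19.9 and 13.8 CPM) and microglia-like cells (8.78 and 8.34 CPM) were lowest among the classes with over 20 Vim UMIs in each library.

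Within the mural-like class, Vim separated the contractile cells from the others. In the cluster led by Tagln, Acta2 and Myh11, genes of the smooth muscle contractile apparatus, it stood at 5772 CPM in the Mr1+/+ and 5757 CPM in the Mr1-/- library. In the cluster led by Kcnj8, Vtn and Abcc9, known pericyte genes, it stood at 212 and 166 CPM, 27.2 times (23.5 to 31.6) and 34.7 times (29.5 to 41.1) lower. The remaining cluster, led by Ccl19, lay between at 785 and 638 CPM. Among endothelial-like clusters, Vim was highest in the cluster led by Gkn3 and Sema3g, known arterial genes, at 2324 and 2233 CPM, and lowest in the cluster led by Plvap, a gene of fenestrated endothelium, at 813 and 335 CPM. Neither Vim nor another member had been used to make the clusters, but genes that vary with them had, so these levels are descriptions.

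**Figure D3:**
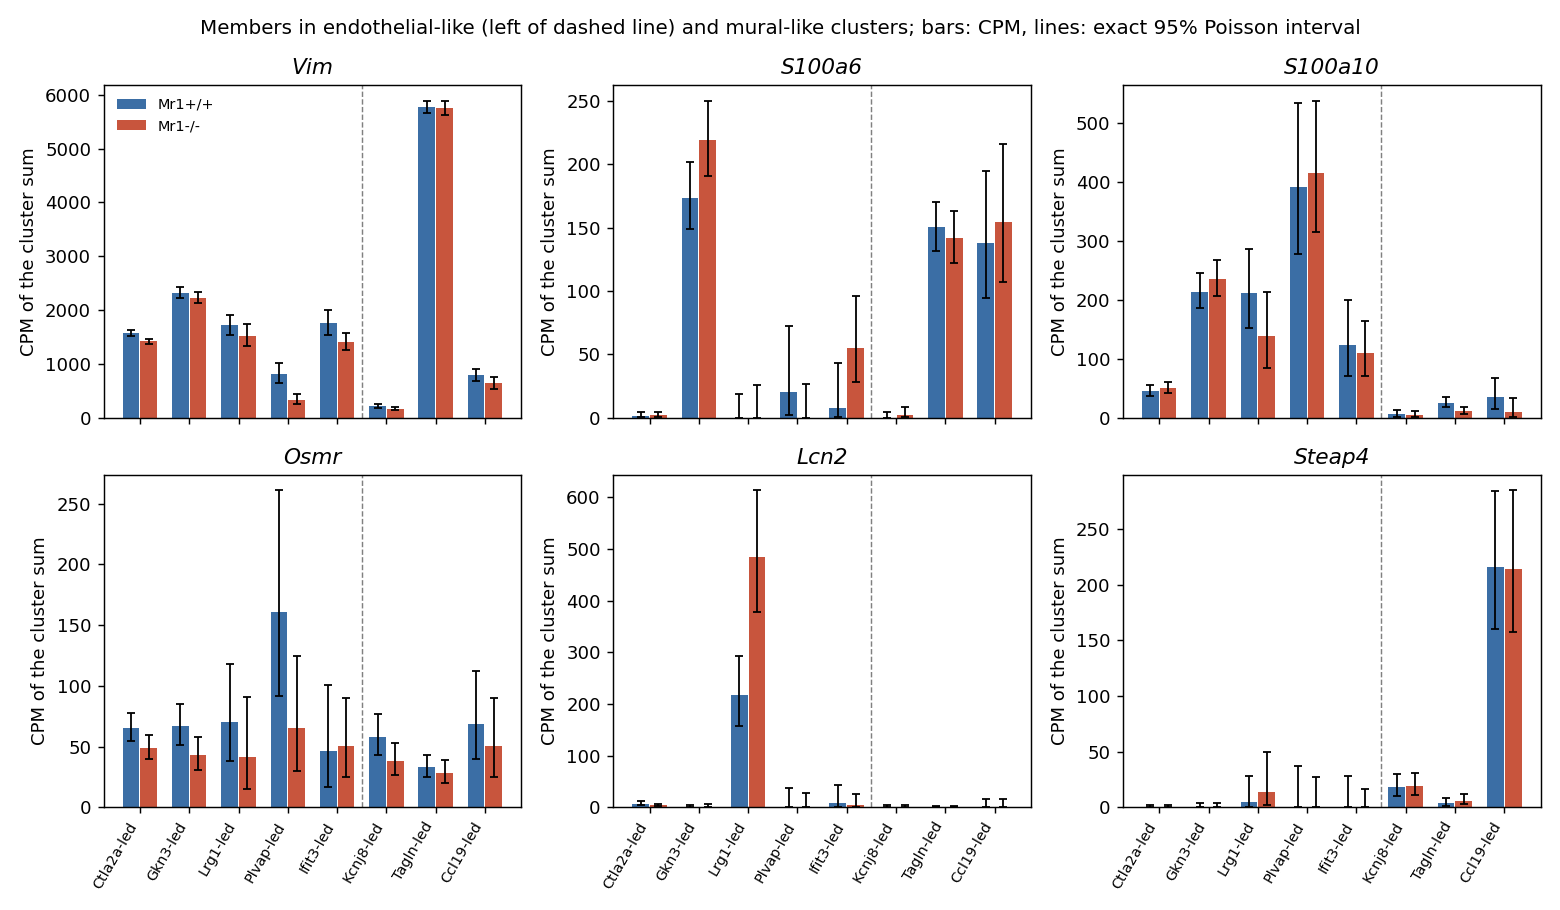
CPM (bars, from 0) with exact 95% Poisson intervals (lines) of Vim, S100a6, S100a10, Osmr, Lcn2 and Steap4 in 5 endothelial-like clusters (left of the dashed line) and 3 mural-like clusters, named by a leading gene, blue for Mr1+/+ and red for Mr1-/-. Vim peaks in the Tagln-led cluster, S100a6 in the Gkn3-led, Tagln-led and Ccl19-led clusters, Lcn2 in the Lrg1-led cluster and Steap4 in the Ccl19-led cluster, in both libraries. The intervals do not cover unevenness between the cells of a cluster.

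S100a6 was highest in 3 small classes and uneven over the vessel clusters. It stood at 1013 CPM (319 UMIs) in Mr1+/+ and 561 CPM (207 UMIs) in Mr1-/- ependymal-like cells, at 913 and 981 CPM in fibroblast-like cells, and at 707 and 1041 CPM in oligodendrocyte precursor-like cells. The order of these 3 classes differed between the libraries. Below them came astrocyte-like cells, then mural-like (101 and 91.8 CPM) and oligodendrocyte-like cells (92.0 and 93.0 CPM), which could not be ordered, and then endothelial-like cells (51.3 and 63.8 CPM). Microglia-like cells held 5 and 10 UMIs, 1.33 and 2.53 CPM. In the Gkn3-led arterial cluster S100a6 stood at 174 and 219 CPM. In the Ctla2a-led cluster, the largest of the endothelial-like clusters with 832 and 926 cells, it stood at 1.46 and 1.87 CPM (3 and 4 UMIs). Among mural-like clusters it stood at 150 and 142 CPM (240 and 188 UMIs) in the Tagln-led cluster and at 138 and 155 CPM (32 and 34 UMIs) in the Ccl19-led cluster. The Kcnj8-led cluster held 0 and 2 UMIs. A minority of cells carried these levels. An S100a6 UMI was seen in 46 of 363 and 48 of 379 Gkn3-led cells and in 69 of 410 and 52 of 358 Tagln-led cells. In the Ccl19-led cluster it was seen in 9 of 114 and 5 of 117 cells.

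In oligodendrocyte precursor-like cells the S100a6 UMIs came from a few cells. Of 147 UMIs in 42 Mr1+/+ cells, 110 were in 5 cells, and of 153 UMIs in 33 Mr1-/- cells, 134 were in 5 cells. The highest Mr1-/- cells held 61 and 58 UMIs and the highest Mr1+/+ cells 49 and 31. Cells with a UMI of the precursor genes Gpr17, Pdgfra and Cspg4 overlap, and the S100a6 UMIs did not follow these genes alike in the 2 libraries. In the Mr1+/+ and the Mr1-/- library respectively, Gpr17 cells held 142 of 147 and 149 of 153 UMIs, Pdgfra cells 41 and 21, and Cspg4 cells 39 and 132. Gpr17 itself was about as frequent in cells with an S100a6 UMI (85% and 83.3%) as in the others (81.8% and 86.7%). The ratio of 1.47 (1.17 to 1.86) between the libraries therefore rests on few cells.

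S100a10 was spread over more classes. Fibroblast-like cells were highest, at 515 CPM (57 UMIs) in the Mr1+/+ and 304 CPM (36 UMIs) in the Mr1-/- library, with ependymal-like cells at 270 and 260 CPM, and the intervals of these 2 classes overlapped in the Mr1-/- library. Endothelial-like cells stood at 116 and 122 CPM, above astrocyte-like cells in both libraries. Neuroblast-like cells, at 99.0 and 205 CPM, overlapped endothelial-like cells in the Mr1+/+ library and lay above them in the Mr1-/- library. Microglia-like (15.4 and 16.2 CPM), oligodendrocyte-like (16.1 and 14.3 CPM), neuron-like (13.1 and 9.23 CPM) and mural-like cells (19.96 and 8.20 CPM) were the low classes. Oligodendrocyte precursor-like cells, high in S100a6, held 1 S100a10 UMI in each library. Among endothelial-like clusters S100a10 was highest in the Plvap-led cluster (392 and 416 CPM) and stood at 214 and 236 CPM in the Gkn3-led cluster. The Ctla2a-led cluster had 44.8 and 50.5 CPM, 4.78 times (3.73 to 6.17) and 4.68 times (3.71 to 5.93) below the Gkn3-led cluster.

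Osmr, the receptor of oncostatin M, was likewise carried mostly by vessels. Endothelial-like cells took 59.0% of its UMIs in the Mr1+/+ and 63.1% in the Mr1-/- library, and mural-like cells 30% and 30.3%. Endothelial-like cells stood at 68.0 CPM (236 UMIs, 59.6 to 77.3) in the Mr1+/+ and 47.8 CPM (173 UMIs, 40.9 to 55.5) in the Mr1-/- library, whose intervals did not overlap. The ratio was 0.703 (0.574 to 0.859). The share of endothelial-like cells with an Osmr UMI, thinned to 1500 UMIs, was 9.91% (8.25% to 11.8%) and 5.997% (4.78% to 7.41%), beside 15.3% and 10.5% unthinned, at medians of 2539 and 2334.5 UMIs. In microglia-like cells 0.159% and 0.134% had an Osmr UMI. The Ctla2a-led cluster (65.3 and 49.1 CPM, ratio 0.752, 0.577 to 0.978) and the Gkn3-led cluster (66.7 and 42.8 CPM, ratio 0.641, 0.425 to 0.958) both had the lower level in the Mr1-/- library. The Plvap-led (161 and 65.6 CPM) and Lrg1-led clusters (70.5 and 41.6 CPM), with 16 or fewer UMIs each, also did, while the Ifit3-led cluster had 46.1 and 50.4 CPM. Mural-like cells went from 44.3 to 34.03 CPM, a ratio of 0.767 (0.573 to 1.02) whose interval included 1.

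Other genes of the interleukin-6 family pathway pointed both ways in endothelial-like cells. Of 20 listed genes 12 were measured there, with 6 ratios above and 6 below 1, and 0 passed 1.5-fold, beside 0.823% of 8989 genes in either direction. The shared receptor chain Il6st was 0.951 (0.794 to 1.14) and the transcription factor Stat3 1.06 (0.904 to 1.24). Socs3, a feedback target of STAT3, was 0.885 (0.633 to 1.23). The interleukin-11 receptor gene Il11ra1 was 1.45 (1.12 to 1.88) and the kinase gene Jak2 1.35 (1.04 to 1.76), both with intervals above 1. Osm, given because it encodes the ligand of OSMR, had 0 UMIs in endothelial-like cells of both libraries.

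Most Lcn2 UMIs lay in 1 endothelial-like cluster. In the Mr1-/- library a further 27 were in 1 unnamed cell with 537 neutrophil marker UMIs. Endothelial-like cells held 58 of 60 Mr1+/+ UMIs and 80 of 108 Mr1-/- UMIs. Of these, 43 and 70 lay in the cluster led by Lrg1, Vwf and Ackr1, known venous genes, which had 67 and 53 cells. Its level there was 217 CPM in the Mr1+/+ and 485 CPM in the Mr1-/- library, against 6.82 and 3.74 CPM in the Ctla2a-led cluster and 0 and 1 UMIs in the Gkn3-led cluster. The distribution over cells differed in the opposite direction. In the Mr1+/+ library 23 of 67 cells (34.3%, interval 23.2% to 46.9%) had a UMI, 11 of them exactly 1 and none more than 7. In the Mr1-/- library 4 of 53 cells (7.55%, 2.09% to 18.2%) had a UMI, with 43, 20, 6 and 1 UMIs.

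After thinning to 1000 UMIs the shares of Lrg1-led cells with an Lcn2 UMI were 15.6% (10 of 64 cells) and 5.77% (3 of 52 cells), whose intervals overlapped, and 3 and 1 cells were left out. Since the share and the CPM point in opposite directions, no order of the libraries was read from either. Over all endothelial-like cells the log2 ratio of Lcn2 was 0.26, and it turned to -0.34 when predicted doublets were kept. The cell with 43 Lcn2 UMIs had 3126 UMIs in total, 11 endothelial marker UMIs and 0 neutrophil marker UMIs. All neutrophil markers were at 0 UMIs in the Lrg1-led cluster in both libraries, and the source of the high counts was not tested. Over the other endothelial-like clusters 1.02% and 0.552% of cells had an Lcn2 UMI.

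Steap4, a metalloreductase of iron and copper, had 84.7% of its Mr1+/+ and 94.7% of its Mr1-/- UMIs in mural-like cells. The counts there were 72 and 72 UMIs, 26.6 and 29.5 CPM, a ratio of 1.11 (0.789 to 1.56). Fibroblast-like cells held 9 and 2 UMIs, which in the Mr1+/+ library was a higher level (81.3 CPM, 37.2 to 154) than that of mural-like cells (20.8 to 33.5). In the Mr1-/- library their level (16.9 CPM, 2.05 to 61.1) overlapped that of mural-like cells. The Ccl19-led mural-like cluster (114 and 117 cells) carried 50 and 47 of the UMIs, 216 CPM in the Mr1+/+ and 214 CPM in the Mr1-/- library. The Kcnj8-led cluster had 18.3 and 19.1 CPM, and the Tagln-led cluster 3.76 and 6.03 CPM. The order of the clusters and their levels were alike in the 2 libraries.

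Serpina3n, an inhibitor of serine proteases, had at most 44 UMIs in any class. Oligodendrocyte-like cells held 44 and 35 of its UMIs (8.26 and 9.83 CPM) and neuron-like cells 16 and 7 (14.97 and 10.8 CPM). Endothelial-like, mural-like and microglia-like cells had 0 UMIs in both libraries. An unnamed cluster led by Klk6, in which all 8 oligodendrocyte markers were detected, held 22 and 9 UMIs, 23.6 and 14.3 CPM. Cd44 had 30 and 33 UMIs over all kept cells, and ependymal-like cells, with 5 and 11 UMIs (15.9 and 29.8 CPM), had its highest level. Among classes with a Cd44 UMI, the ependymal-like intervals overlapped those of fibroblast-like cells in both libraries. In the Mr1+/+ library they also overlapped those of astrocyte-like cells. Timp1 had 7 and 10 UMIs over all cells, of which 3 and 6 were in endothelial-like cells. Most levels of these 3 genes had intervals that overlapped between neighbouring classes.

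Members were compared in 7 classes, those of 50 or more cells per library, and members past 1.5-fold between the libraries were few. In mural-like cells S100a10 was 1 of 5 measured members past it, beside 0.626% of 8622 genes. It went from 19.96 CPM (54 UMIs, 14.99 to 26.0) in the Mr1+/+ to 8.20 CPM (20 UMIs, 5.01 to 12.7) in the Mr1-/- library, a ratio of 0.411 (0.233 to 0.698). The Tagln-led cluster held 41 and 14 of these UMIs. Endothelial markers summed to 173 and 178 CPM in mural-like cells, with all 8 above 0 in both libraries. The highest of them alone gave 102 and 117 CPM, and Cldn5 had 24 and 26 UMIs. Their part in the S100a10 difference was not tested. The log2 ratio of S100a10 was -0.72, and -0.41 after each cell was thinned to 1500 UMIs, which is no longer past 1.5-fold.

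In neuroblast-like cells both measured members, Vim and S100a10, passed 1.5-fold, but 17.2% of 1899 genes did so in this class of 66 and 54 cells. Vim went from 167 CPM (44 UMIs) to 423 CPM (105 UMIs), a ratio of 2.52 (1.76 to 3.68), and S100a10 from 99.0 to 205 CPM, a ratio of 2.08 (1.27 to 3.47). The log2 ratio of Vim was 1.29, and 0.71 when each cell had the same weight. Markers of other cell types differed between these 2 sets of cells. The 8 oligodendrocyte markers summed to 1896 CPM (all above 0) and 88.6 CPM (5 of 8), and the 8 endothelial markers to 343 CPM (7 of 8) and 24.2 CPM (2 of 8). Their part in the result was not tested. Cells with a UMI of the proliferation genes Mki67 or Top2a, chosen after the values were seen, numbered 1 of 66 in the Mr1+/+ and 8 of 54 in the Mr1-/- library. They held 2 and 69 of the Vim UMIs. These cells were deeper, with medians of 6185 (1 cell) and 10847 UMIs beside 3852 and 2585 in the remaining cells. The part of these cells, or of their depth, in the Vim ratio was not tested. Among the remaining cells Vim stood at 164 CPM (118 to 221) and 221 CPM (155 to 306), and S100a10 at 101 CPM (66.2 to 149) and 258 CPM (186 to 348).

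In oligodendrocyte-like cells 0 of 5 measured members passed 1.5-fold, beside 0.424% of genes, and in microglia-like cells 0 of 2, beside 0.59%. In endothelial-like cells 0 of 5 did, beside 0.823% of 8989 genes. Vim was slightly lower in the Mr1-/- library in endothelial-like (0.902, 0.870 to 0.935) and mural-like cells (0.918, 0.891 to 0.945), where many UMIs make the counting interval narrow. The Tagln-led cluster held 9221 and 7643 of the mural-like Vim UMIs, at near-equal levels of 5772 and 5757 CPM. It had 410 of 965 Mr1+/+ and 358 of 971 Mr1-/- mural-like cells. The Kcnj8-led (212 and 166 CPM) and Ccl19-led clusters (785 and 638 CPM) were lower in the Mr1-/- library. The part of cluster sizes in the mural-like ratio was not tested. The mural-like log2 ratio of Vim was -0.12, but -0.48 with at most 5% mitochondrial UMIs and -0.04 after thinning to 1500 UMIs. In neuron-like cells no member was measured, and 5.09% of genes passed 1.5-fold. Vim had 38 and 2 UMIs there, and 26 of the 38 were in 1 cell that also held 372 mural marker UMIs.

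The 3 classes under 50 cells in a library are given as values. In ependymal-like cells 1 of 4 measured members passed 1.5-fold, S100a6 at 0.553 (0.462 to 0.661), where 8.35% of genes did. Vim was 0.773 (0.700 to 0.854) there and Gfap 0.818 (0.580 to 1.15). In fibroblast-like cells 1 of 3 measured members did, S100a10 at 0.591 (0.378 to 0.913), where 13.8% of genes did. In oligodendrocyte precursor-like cells S100a6 was the 1 measured member and did not pass, where 10.4% of genes did.

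**Figure D4:**
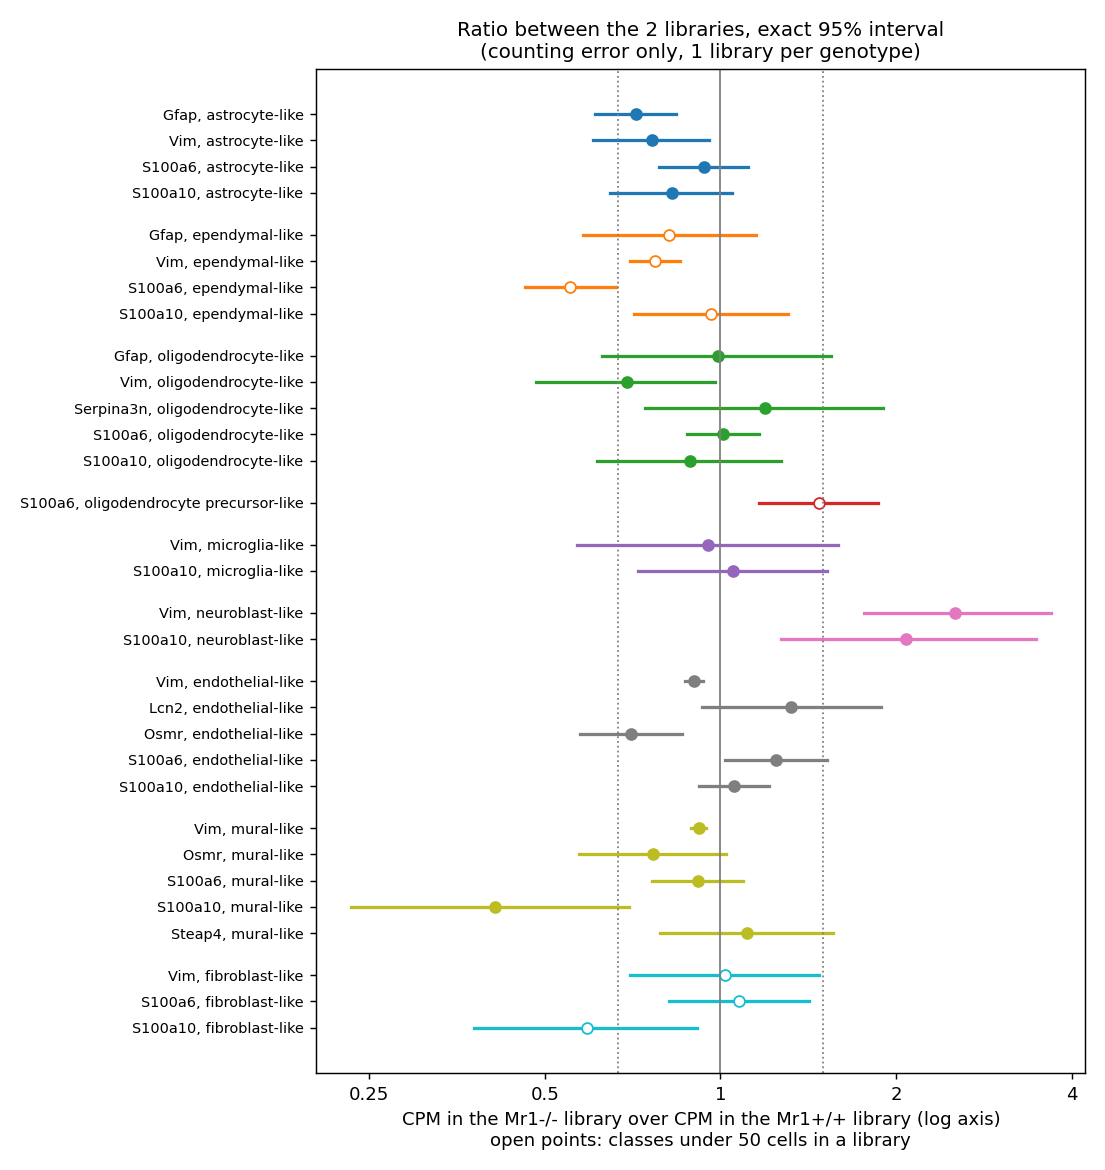
Ratio of CPM in the Mr1-/- library over the Mr1+/+ library (log axis) with exact 95% intervals for every member with at least 50 UMIs in a class; the dotted lines mark 1.5-fold either way and open points are classes under 50 cells in a library. The 4 astrocyte-like points lie between 0.716 and 0.936, mural-like S100a10 lies at 0.411, and the neuroblast-like points lie at 2.08 and 2.52.

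Lists of related genes in astrocyte-like cells showed few large differences. Over all genes measured there, 3900 had a ratio above 1 and 4582 a ratio below 1, the background for the counts that follow. Of 5 other pan-reactive genes and 11 genes of the type induced by ischaemia (A2-type), 0 were measured. Of 13 genes of the type induced by inflammation (A1-type), 3 were measured: H2-D1 at 1.14 (0.730 to 1.74), Fbln5 at 0.935 (0.676 to 1.28) and Amigo2 at 0.839 (0.465 to 1.46). Of 13 S100 and annexin genes 8 were measured, 4 higher and 4 lower. Among them Anxa2, the partner of S100A10, was past 1.5-fold, with 58 UMIs (19.1 CPM) in the Mr1+/+ and 11 UMIs (7.51 CPM) in the Mr1-/- library, a ratio of 0.394 (0.186 to 0.758). S100b, the abundant astrocyte S100 gene, was 1.20 (1.09 to 1.32).

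Of 10 genes for other intermediate filaments and their linkers, 2 were measured and both were lower. The nuclear lamin gene Lmna was 0.559 (0.328 to 0.915) and the linker gene Plec 0.865 (0.583 to 1.26). Of 13 metalloproteinase and inhibitor genes 8 were measured, 1 higher and 7 lower, from Adam17 at 0.593 (0.360 to 0.943) to Timp3 at 1.03 (0.910 to 1.17). Timp4, the inhibitor with the most UMIs, was 0.964 (0.894 to 1.04), while Timp1 had none. Of 12 genes for CD44 ligands and partners 8 were measured, 1 higher and 7 lower, with a median log2 ratio of -0.12. Of 10 iron and lipocalin genes 6 were measured, 3 higher and 3 lower. The LCN2 receptor gene Slc22a17 was 0.860 (0.762 to 0.969). Of 12 serpin genes found by symbol, 2 were measured, Serpine2 at 0.988 and Serpinh1 at 0.857.

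Of 20 interleukin-6 family genes 10 were measured in astrocyte-like cells, 5 higher and 5 lower, with a median log2 ratio of 0.00. The ciliary neurotrophic factor receptor Cntfr was 1.08 (0.921 to 1.26), Lifr 0.929 (0.711 to 1.21) and Jak1 0.910 (0.740 to 1.11). All 17 listed homeostatic astrocyte genes were measured, 6 higher and 11 lower, with a median of -0.05. Slc1a2, the main glutamate transporter gene, was 1.01 (0.985 to 1.04) and Aqp4, the water channel gene, 0.873 (0.802 to 0.9498). In none of these 11 lists other than the S100 and annexin list did a measured gene pass 1.5-fold after 10 CPM were added, beside the 1.05% over all genes. Without that addition the ratios of Lmna, Adam17 and the kinase gene Tyk2 (0.586, 0.271 to 1.17) were also past 1.5-fold.

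The genes whose levels ran most like each member were sought over 14 points, the 7 classes of at least 50 cells in 2 libraries, among 7903 genes. The points share libraries and depths, so the correlations are descriptions. For Gfap they were Cyp4f14 (Pearson r = 0.992), Slc13a5 (0.989) and Gm40578 (0.989), all highest in astrocyte-like cells. For Vim they were Sike1 (0.969), Iqgap1 (0.967) and Prss23 (0.955), and for Osmr Epas1 (0.985), Adgre5 (0.978) and Col4a2 (0.977). For Lcn2 they were Gkn3, Flt4 and Odf3b (each 0.997), highest in endothelial-like cells, and for Steap4 Cd248, Smim5 and C1qtnf7, highest in mural-like cells. Lcn2 and Steap4 were at or near 0 in the other classes compared, so these matches rest on 1 class. Within the endothelial-like class Lcn2 did not follow Gkn3, since the Gkn3-led cluster held 0 and 1 Lcn2 UMIs. The best match was lower for S100a6 (mt-Nd2, 0.960), Serpina3n (Mblac2, 0.958) and S100a10 (Xpnpep1, 0.902).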

How the data were processed

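The deposited matrices hold unnormalised UMI counts, whole numbers for each gene in each barcode. Per the file headers they were written by Cell Ranger 3.1.0. The submitters' processing notes name mm10 as the build, and STAR and Cell Ranger 5.1.0 as tools. The annotation release was not stated. Barcodes with at least 300 genes and at most 10% mitochondrial UMIs were kept, and Scrublet (expected rate 0.05) removed 335 Mr1+/+ and 171 Mr1-/- predicted doublets. Both libraries were clustered together with Leiden (scanpy 1.11.5, leidenalg 0.10.2, Python 3.11.15; total 10000, 2000 variable genes without the 10 members, 30 components, 15 neighbours, resolution 1.0, seed 7). A cluster was named from marker genes if at least 3 were detected in 10% of its cells and its 10 leading genes did not favour another class. Such names can differ from the study's own. A cluster with a median depth under its library's median divided by 3 also needed a marker of its own among those 10 genes.

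CPM, shares and ratios were computed here from the deposited counts, summed per class and library. Intervals are 95% and exact: Poisson for levels, Clopper-Pearson for shares, conditional binomial for ratios. They cover counting error only. The script was tested on simulated data. A count of 0 was read as allowing 3 counts. The members and lists were chosen with earlier results of these data known. In each related list the genes eligible to be named were the 4 with the most UMIs and the 2 with the largest ratio each way, and for each member with at least 100 UMIs the 3 genes of most similar level, among genes reaching 50 CPM in a class. Gene positions and promoters were taken from GENCODE vM21 and RefSeq tables. Alternatives were other doublet, mitochondrial and UMI limits, clustering, scaling, added CPM and thinning.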

Additional observations from a re-analysis of the deposited data

Results flagged for a closer look

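Some members had ratios on opposite sides of 1 in different cell classes, and these differences between classes were not tested. Each pair below takes the classes with the highest and the lowest ratio among those whose interval excluded 1. The Vim log2 ratio in neuroblast-like cells exceeded that in oligodendrocyte-like cells by 1.62. For S100a6 the log2 ratio in oligodendrocyte precursor-like cells exceeded that in ependymal-like cells by 1.39. Single Mr1-/- precursor-like cells held 61 and 58 of the 153 UMIs. For S100a10 the log2 ratio in neuroblast-like cells exceeded that in mural-like cells by 1.70. In neuroblast-like cells 17.2% of all measured genes passed 1.5-fold.

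Signal of members was also present in clusters that no comparison used. An unnamed cluster led by Ttr, Cnmd and Cldn3 held 53 Gfap UMIs in 14 Mr1+/+ cells (736 CPM, interval 551 to 962) and 5 in 13 Mr1-/- cells (126 CPM, 41.0 to 295), while its cells had median depths of 6037.5 and 791 UMIs. The same cluster held 92 and 44 Vim UMIs and 9 and 5 Serpina3n UMIs. An unnamed cluster led by S100a9 held 27 Lcn2 UMIs in the Mr1-/- library, all in 1 cell with 537 neutrophil marker UMIs and 26 S100a6 UMIs, and 0 in the Mr1+/+ library.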

How the results depend on the processing

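No paired analysis was possible because there is 1 library per genotype. The count of members past 1.5-fold in astrocyte-like cells stayed at 0 in each direction under every alternative tried but 1. At a limit of 5% mitochondrial UMIs, 1 member was past it in the lower direction. The finer cluster led by Slc1a2 was not among these alternatives, and there Gfap was past it in the lower direction (ratio 0.619, 0.506 to 0.752). The median log2 ratio of the measured members in astrocyte-like cells moved from -0.30 to -0.17 when each cell had the same weight. Under the other alternatives it stayed within 0.1. The sign turned for Vim in astrocyte-like cells with doublets kept (0.23), for Vim in oligodendrocyte-like cells thinned to 1500 UMIs (0.023) and for S100a6 in endothelial-like cells with each cell weighing the same (-0.055). Lcn2 in endothelial-like cells, whose interval included no change, also turned with doublets kept (-0.34). The cause was not tested. Cd44, Timp1, Lcn2, Steap4 and Serpina3n had under 50 UMIs in most classes, so no ratio was read there. The larger astrocyte-like cluster alone was a setting chosen after seeing the data.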
